A study of Arabidopsis thaliana with 8 samples.

Results

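The genes described here are the core of the *Arabidopsis* cold response pathway that is built around the C-REPEAT BINDING FACTOR (CBF) transcription factors. They were picked by name, under a rule that holds no measured value, and comprise the 3 *CBF* genes of the tandem cluster on chromosome 4 and 7 cold-regulated effector genes, *COR15A*, *COR15B*, *COR47*, *KIN1*, *KIN2*, *RD29A* and *LTI30*. All 10 were found among the 37336 genes listed in each library. The study set wild-type Col-0 seedlings, taken whole, against those of *ubp5*, a mutant of the gene for the histone H2A deubiquitinase UBP5. It carries a genome-edited (CRISPR/Cas9) deletion that reaches into the DUSP and the catalytic UBP region of the protein and leaves part of each in place. Each group held 4 biological replicates. Seeds of both genotypes were kept for 3 days at 4 °C before they were moved to long days on MS agar, and the seedlings were collected 12 days after germination. No cold treatment of the collected seedlings is described. A single mutant line was sequenced.

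In cold plants, the MYC-like factor ICE1 and the calmodulin-binding CAMTA factors switch on the *CBF* genes within minutes to hours. The CBF proteins, also named DREB1, then bind a short element called CRT/DRE in the promoters of *COR* genes and raise their transcription. The products of *COR* genes include dehydrins and other very hydrophilic proteins that protect membranes and enzymes when cells lose water, and abscisic acid (ABA) raises several of the same genes through a second element, ABRE. Without cold, *CBF* transcripts are rare and follow the circadian clock.

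The CRT/DRE and ABRE cores in a short window before the members are shown because such sequences connect a *COR* gene with the CBF and ABA branches. The 250 bases before the annotated gene start were read from the RefSeq genome and annotation of TAIR10.1 and searched on both strands for the CRT/DRE core CCGAC and the ABRE core ACGTG. The CRT/DRE core was found before 3 of the 10 members, *RD29A*, *LTI30* and *COR15A*, and before 12% of the 27443 protein-coding genes. *RD29A* and *LTI30* each held 3 copies and *COR15A* held 2, whereas 1.46% of protein-coding genes held 2 or more. The ABRE core was found before 4 members, *CBF2*, *COR15A*, *KIN1* and *KIN2*, and before 22.9% of protein-coding genes. In *CBF2* and *COR15A* it lay in the palindrome CACGTG, which counts once on each strand. The windows below are written 5′ to 3′ on the strand of the gene, and capitals mark the CRT/DRE core or its reverse complement GTCGG and the ABRE core or its reverse complement CACGT. They cover chr5:21240467-21240716 (plus strand) for *RD29A*, chr3:18940393-18940642 (plus strand) for *LTI30*, chr2:17712331-17712580 (minus strand) for *COR15A*, chr5:5209467-5209716 (plus strand) for *KIN1* and chr5:5211469-5211718 (plus strand) for *KIN2*.
RD29A: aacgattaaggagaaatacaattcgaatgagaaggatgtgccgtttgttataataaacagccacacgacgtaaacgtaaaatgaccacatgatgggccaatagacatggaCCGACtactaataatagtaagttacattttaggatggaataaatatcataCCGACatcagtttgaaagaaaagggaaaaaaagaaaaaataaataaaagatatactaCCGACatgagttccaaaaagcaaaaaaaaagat
LTI30: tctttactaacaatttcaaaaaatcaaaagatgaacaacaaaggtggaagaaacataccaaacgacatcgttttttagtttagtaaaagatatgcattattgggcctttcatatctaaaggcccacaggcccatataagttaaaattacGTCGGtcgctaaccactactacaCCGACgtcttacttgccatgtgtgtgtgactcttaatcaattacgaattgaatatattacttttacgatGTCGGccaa
COR15A: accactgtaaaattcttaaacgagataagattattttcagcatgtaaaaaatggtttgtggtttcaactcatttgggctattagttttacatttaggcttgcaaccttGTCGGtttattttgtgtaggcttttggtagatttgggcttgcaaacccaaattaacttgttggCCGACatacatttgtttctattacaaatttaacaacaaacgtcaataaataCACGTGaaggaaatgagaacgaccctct
KIN1: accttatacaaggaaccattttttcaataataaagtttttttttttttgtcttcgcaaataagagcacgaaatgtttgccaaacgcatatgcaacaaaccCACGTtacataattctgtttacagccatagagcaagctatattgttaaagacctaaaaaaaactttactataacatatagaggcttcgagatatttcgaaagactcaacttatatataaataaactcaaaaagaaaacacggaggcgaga
KIN2: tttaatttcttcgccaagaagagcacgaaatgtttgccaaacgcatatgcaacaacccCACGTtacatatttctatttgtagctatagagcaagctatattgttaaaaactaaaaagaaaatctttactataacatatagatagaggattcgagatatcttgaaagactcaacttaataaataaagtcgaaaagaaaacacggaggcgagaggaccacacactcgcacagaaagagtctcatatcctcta

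In *RD29A* the CRT/DRE cores began 140, 90 and 33 bases before the gene start, all on the strand of the gene. In *LTI30* they began 101, 78 and 9 bases before it, and in *COR15A* 142 and 79 bases before it, with both strands used in these genes. The single ABRE core of *KIN1* began 150 bases before the start and that of *KIN2* 192 bases before it, each on the opposite strand. The windows of *CBF1*, *CBF3*, *COR15B* and *COR47* held neither core, and all but 7 bases of the *COR15B* window lie inside *COR15A*. The GAGA sequence GAGAGA and the telobox AAACCCTA, which have been tied to Polycomb recruitment in plants, were found before 0 of the 10 members, against 20.6% and 4.49% of protein-coding genes. These matches describe letters in a fixed window and are not binding sites. Sequence further upstream or inside the annotated transcript was not searched. A window without a core therefore does not show that the gene lacks the element.

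**Figure D1:**
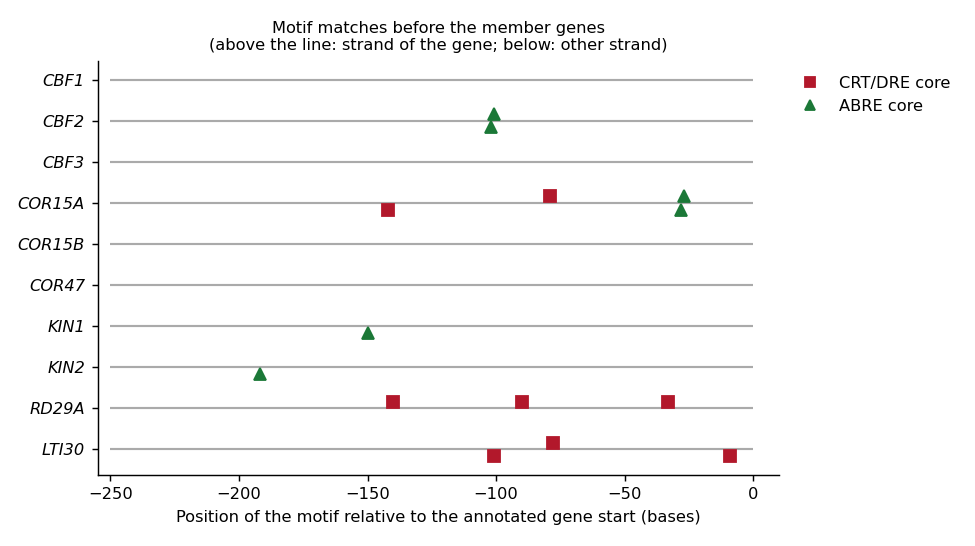
Map of the 250 bases before the annotated start of each member gene, with the position in bases on the x axis and 1 line per gene. Squares mark the CRT/DRE core and triangles the ABRE core, above the line on the strand of the gene and below it on the other strand. *RD29A* and *LTI30* carry 3 CRT/DRE cores each, and *CBF1*, *CBF3*, *COR15B* and *COR47* carry neither core in this window.

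Several members lie next to a related gene. *CBF2* (AT4G25470, chr4:13015250-13016235), *CBF3* (AT4G25480, chr4:13018010-13019400) and *CBF1* (AT4G25490, chr4:13021780-13022996) follow each other on the minus strand, each with a single exon. *COR15B* (AT2G42530, chr2:17708593-17710433) and *COR15A* (AT2G42540, chr2:17710441-17712330) are separated by 7 bases on the minus strand. *KIN1* (AT5G15960, chr5:5209717-5210826) and *KIN2* (AT5G15970, chr5:5211719-5212743) lie side by side on the plus strand. *COR47* (AT1G20440, chr1:7084409-7086873, minus strand) neighbours the dehydrin gene *ERD10*, *RD29A* (AT5G52310, chr5:21240717-21243644, plus strand) neighbours *RD29B*, and *LTI30* (AT3G50970, chr3:18940643-18941611, plus strand) lies 313 bases from the dehydrin gene *XERO1*. Positions are those of TAIR10.1. The coding sequences of *KIN1* and *KIN2* were 95% identical over the aligned bases, those of the *CBF* genes 87.3 to 87.5% and those of *COR15A* and *COR15B* 83.8%. Within the last 300 bases of the transcripts, where a 3′ method reads, 0 of the 246 windows of 55 bases, the read length, were shared within any of these pairs. Reads from upstream parts of the transcripts can still be shared, since 19 windows were common to *CBF1* and *CBF2*, 3 to *CBF2* and *CBF3*, and 4 to *KIN1* and *KIN2*.

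Totals ranged from 2572842 to 2997743 counts in Col-0 and from 1440510 to 2595285 in *ubp5*, and each count is 1 tagged transcript 3′ end, so levels of different genes were compared without correction for length. A count of 3, taken as the smallest that shows a transcript, equals 1.00 to 2.11 CPM in these libraries, where CPM is the count scaled to a common library size. In a principal component analysis of the 500 most variable genes the first component (69.4% of the variance) separated the genotypes and the second (15.1%) set Col-0 replicate 1 apart. *UBP5* had 32 to 57 counts in Col-0 and 6 to 16 in the mutant (log2 fold change -1.53, standard error (SE) 0.25, adjusted p = 0.00236 in the edgeR quasi-likelihood test, adjusted over 15649 tested genes by Benjamini-Hochberg). As 3′ ends were counted, this reads the transcript level and does not check the deletion itself. The leaf markers, 7 of 7 measured, summed to 37435 to 50631 CPM in Col-0 against 31077 to 34487 CPM in *ubp5*, with no overlap. Of these markers 0 rose and 4 fell by an adjusted p under 0.05 alone, against 4.59% and 6.34% of all tested genes. Those that fell were *LHCB2.1*, *RBCS3B*, *LHCB1.1* and *RBCS1A*, genes of light harvesting and carbon fixation.

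In these seedlings, with no stated cold treatment, the *CBF* genes were barely counted, the effector genes were well expressed, and the mutant showed small differences of both signs among the effectors. *LTI30* was the member that fell in *ubp5*, from 71.7 ± 10.3 to 38.0 ± 8.57 CPM (SD, n = 4 each). The remaining effectors did not pass an adjusted p of 0.05 in edgeR's quasi-likelihood test, with lower means in *ubp5* for *COR47*, *KIN1*, *KIN2* and *RD29A* and higher means for *COR15A* and *COR15B*. The median log2 fold change of the 7 tested members was -0.69, beside -0.01 over all 15649 tested genes, and 5 of the 7 values were negative.

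By the thresholds of the study, an adjusted p under 0.05 together with a log2 fold change of 1 or more in either direction, edgeR called 0 members higher and 0 lower. The background over all tested genes was 1.91% for higher and 2.93% for lower calls. DESeq2 also called 0 members in either direction, and 5 of the 7 tested members had an unadjusted p under 0.05 in edgeR, as did 4017 of the 15649 tested genes. By the adjusted p alone, 0 members were higher and 1 was lower, against 4.59% and 6.34% of all tested genes. Every *ubp5* library lay below every Col-0 library for 2 of the 7 tested members, *COR47* and *LTI30*, against 9.37% of tested genes. The reverse order was seen for 0 members, against 7.87% of tested genes. In whole seedlings, fewer cells of a type and less RNA per cell cannot be told apart.

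**Figure D2:**
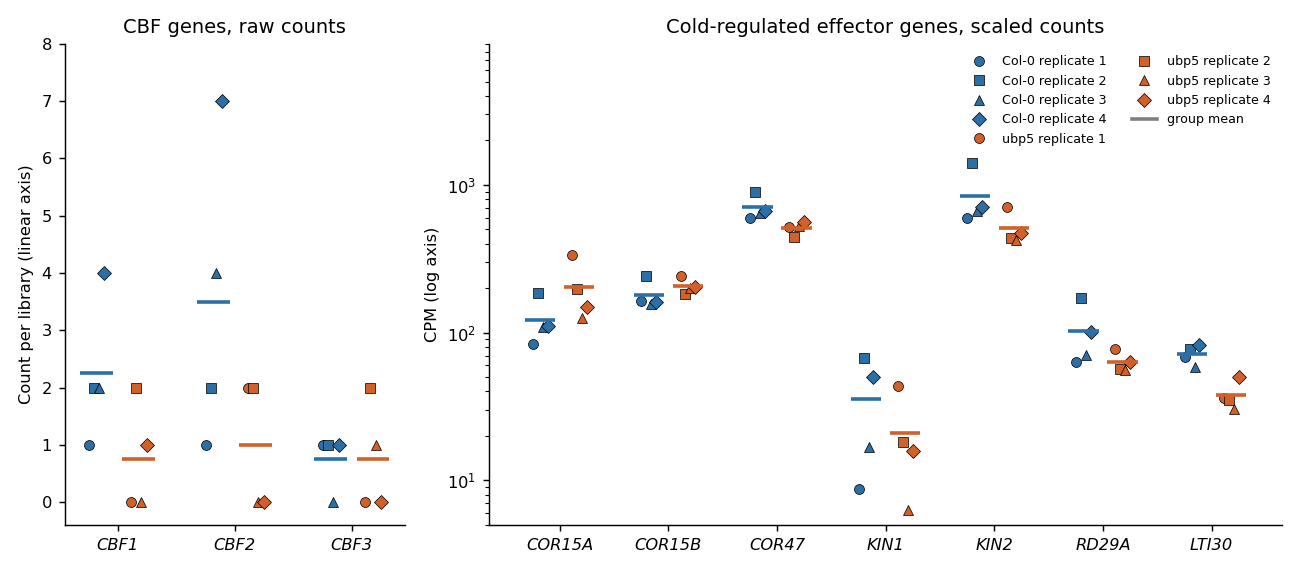
Values of the 10 genes in each library, with raw counts of the *CBF* genes on a linear axis at the left and CPM of the effector genes on a log axis at the right. Points are libraries, coloured by genotype and shaped by replicate, and horizontal lines are group means. The *CBF* genes reach 7 counts at most, and *LTI30* and *COR47* are the effectors whose groups do not overlap.

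The transcription factors were at the limit of detection. *CBF1* had 1, 2, 2 and 4 counts in Col-0 against 0, 2, 0 and 1 in *ubp5*. *CBF2* had 1, 2, 4 and 7 counts in Col-0 and 2, 2, 0 and 0 in *ubp5*. *CBF3* had 1, 1, 0 and 1 counts in Col-0 and 0, 2, 1 and 0 in *ubp5*. The highest value of each of *CBF1* and *CBF2* stood in Col-0 replicate 4, and the groups overlapped for each of the 3 genes. None passed the filter on low counts, so they have no test in the main comparison. In an edgeR fit without the filter their adjusted p-values were 0.526 for *CBF1*, 0.395 for *CBF2* and 0.896 for *CBF3*. The summed counts of the cluster were 3, 5, 6 and 12 in Col-0 and 2, 6, 1 and 1 in *ubp5*, or 2.35 ± 1.21 CPM and 1.12 ± 0.817 CPM (SD, n = 4). Col-0 replicate 4 was highest and *ubp5* replicate 2 lay above 3 of the 4 Col-0 libraries. A difference in *CBF* transcripts between the genotypes was not detectable at this depth.

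Among the effectors, levels in Col-0 fell into a high and a lower tier. *KIN2* and *COR47* ranked 168 and 190 among the 15649 tested genes by mean CPM over the libraries of both genotypes. They led in Col-0 with means of 841.9 and 704.3 CPM, with overlapping values. *COR15B* at 181.0 CPM, *COR15A* at 122.4, *RD29A* at 101.9, *LTI30* at 71.7 and *KIN1* at 35.7 followed, and each overlapped its neighbour in this order. The lowest Col-0 value of *COR47*, 600.0 CPM, lay above the highest of *COR15B*, 243.3 CPM, so the break between the tiers exceeded the spread between replicates. The same tiers stood in *ubp5*, where *COR47* and *KIN2* had means of 514.5 and 509.4 CPM and the other effectors lay between 21.1 and 207.6 CPM. Together the 7 effectors made up between 0.135 and 0.298% of all counts in a library.

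*LTI30* encodes a dehydrin that binds membranes and is raised by cold. It had 68.7, 77.4, 58.7 and 81.9 CPM in Col-0 against 36.2, 35.1, 30.3 and 50.2 CPM in *ubp5*. The highest mutant value, in replicate 4, lay below the lowest Col-0 value, in replicate 3. *LTI30* fell by 0.91 on the log2 scale (SE 0.16, adjusted p = 0.00369 in edgeR). The exact two-sided permutation test of the 4 against 4 values of log2(CPM + 1) gave p = 0.0286, the smallest this design allows. Groups without overlap always give this value, and *COR47* gave it too. Without *ubp5* replicate 4 the log2 fold change was -1.07 and *LTI30* passed the fold threshold as well. Over its 14 alternatives the adjusted p of *LTI30* ranged from 0.000226 to 0.0171.

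*COR47* encodes an acidic dehydrin and was the other effector whose groups did not overlap. Its values were 600.0, 899.8, 648.6 and 669.0 CPM in Col-0 against 523.0, 447.3, 524.1 and 563.4 CPM in *ubp5*. Means were 704.3 ± 133.5 and 514.5 ± 48.5 CPM (SD, n = 4), and Col-0 replicate 2 stood far above its group. The log2 fold change was -0.45 (SE 0.14), and its adjusted p of 0.051 in edgeR fell short of the threshold. That call turned with the processing, since the adjusted p was 0.0369 in DESeq2, 0.0352 without a filter on low counts and 0.0484 without organelle genes. Without Col-0 replicate 1 it was 0.0173, with a log2 fold change of -0.52. Other settings weakened it. Without Col-0 replicate 2 the log2 fold change was -0.32 with an adjusted p of 0.120 in edgeR. The adjusted p in edgeR was 0.136 without *ubp5* replicate 2 and 0.115 with the replicate number as a block. The sum of the leaf markers was, like *COR47* and *LTI30*, lower in *ubp5* than in Col-0, and its part in these differences was not tested.

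*COR15A* and *COR15B* encode closely related chloroplast proteins that protect the envelope membranes during freezing. *COR15A* had 84.3, 185.0, 108.7 and 111.7 CPM in Col-0 against 336.2, 198.6, 126.1 and 148.4 CPM in *ubp5*. The groups overlapped because Col-0 replicate 2 lay above *ubp5* replicates 3 and 4, and *ubp5* replicate 1 was highest. The mean was 122.4 ± 43.5 CPM in Col-0 against 202.4 ± 94.3 CPM in *ubp5* (SD, n = 4), and the log2 fold change was 0.73 (SE 0.29, adjusted p = 0.135 in edgeR). The exact permutation test gave p = 0.143. Single libraries set the size of this value. Without Col-0 replicate 2 the log2 fold change was 0.996 with an adjusted p of 0.0492 in edgeR, just under the fold threshold, and without *ubp5* replicate 1 it was 0.38 with an adjusted p of 0.394.

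*COR15B* had 164.0, 243.3, 155.7 and 160.9 CPM in Col-0 against 242.4, 181.5, 202.2 and 204.6 CPM in *ubp5*. Here 3 Col-0 libraries lay below every mutant library, and Col-0 replicate 2 lay above all of them. The log2 fold change was 0.20 (SE 0.15, adjusted p = 0.454 in edgeR). *COR15B* overlaps AT2G42520 on the opposite strand, and the counts were taken on the sense strand. *COR15A* made up 33.9, 43.2, 41.1 and 41.0% of the summed *COR15* counts in Col-0 against 58.1, 52.3, 38.4 and 42.1% in *ubp5*. In *ubp5* replicate 1 the exact 95% binomial interval of this share, which covers counting error only, was 55.2 to 61.0%, and in *ubp5* replicate 3 it was 34.0 to 43.0%. In Col-0 the interval was 30.3 to 37.7% in replicate 1 and 40.2 to 46.2% in replicate 2. Libraries of either genotype therefore differed among themselves beyond counting error. Among the mutant libraries, replicates 1 and 2 were the ones with the larger *COR15A* share.

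*KIN1* and *KIN2* encode small hydrophilic proteins rich in alanine and lysine that are induced by cold and ABA. *KIN2* had 598.1, 1399, 661.4 and 709.4 CPM in Col-0 against 705.7, 438.2, 424.0 and 469.8 CPM in *ubp5*. Of the mutant libraries, 3 lay below every Col-0 library, and *ubp5* replicate 1 lay among the Col-0 values. The mean was 841.9 ± 374.0 CPM in Col-0 against 509.4 ± 132.2 CPM in *ubp5* (SD, n = 4), and the log2 fold change was -0.72 (SE 0.25, adjusted p = 0.0901 in edgeR). Without Col-0 replicate 1 the value was -0.86 with an adjusted p of 0.0267, without Col-0 replicate 2 it was -0.37, and without the filter on low counts the adjusted p was 0.0412.

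*KIN1* was the most variable member. It had 8.73, 67.5, 16.9 and 49.8 CPM in Col-0 against 43.9, 18.3, 6.34 and 15.8 CPM in *ubp5*. Its highest value was 7.73 times its lowest within Col-0 and 6.92 times within *ubp5*, so the groups overlapped over most of their range. The log2 fold change of -0.73 had an SE of 0.57 (adjusted p = 0.461 in edgeR) and moved between -1.32 without *ubp5* replicate 1 and -0.25 without Col-0 replicate 2. *KIN1* supplied 1.44 to 6.56% of the summed *KIN* counts in Col-0 and 1.47 to 5.85% in the mutant, with no separation of the genotypes.

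*RD29A*, also known as *LTI78* and *COR78*, encodes a hydrophilic protein and is the classical reporter of the CRT/DRE element. It had 63.4, 172.6, 70.7 and 101.0 CPM in Col-0 against 77.0, 56.5, 55.6 and 63.4 CPM in *ubp5*. Col-0 replicates 2 and 4 lay above every mutant library, whereas Col-0 replicates 1 and 3 lay below *ubp5* replicate 1. The mean was 101.9 ± 49.9 CPM in Col-0 against 63.1 ± 9.89 CPM in *ubp5* (SD, n = 4), and the log2 fold change was -0.69 (SE 0.27, adjusted p = 0.126 in edgeR). It was -0.86 with an adjusted p of 0.0249 without Col-0 replicate 1 and -0.31 with an adjusted p of 0.309 without Col-0 replicate 2.

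**Figure D3:**
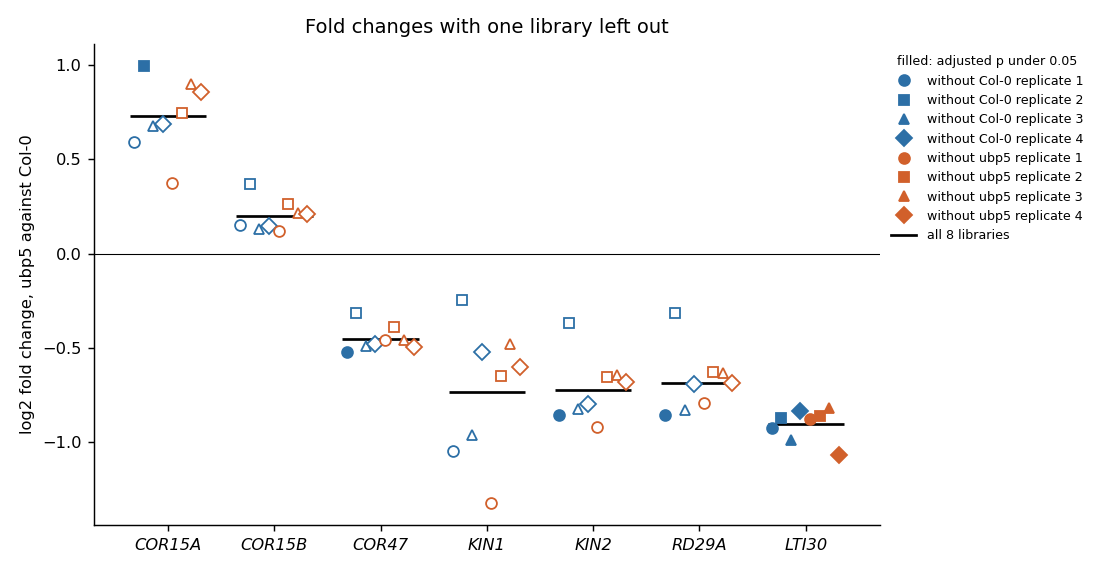
Log2 fold change of each effector, *ubp5* against Col-0, on the y axis when each library was left out in turn. Points are coloured by the genotype and shaped by the replicate left out, filled where the adjusted p was under 0.05 in edgeR, and black lines give the value from all 8 libraries. *LTI30* stays between -1.07 and -0.82 and keeps its filled points, whereas *KIN1* spans -1.32 to -0.25 and *COR15A* 0.38 to 0.996.

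Single libraries were high or low for several effectors at once. Col-0 replicate 2 was the highest Col-0 library for 6 of the 7 effectors, all but *LTI30*, and Col-0 replicate 1 was the lowest for 5. In the mutant, *ubp5* replicate 1 was the highest for 5 effectors, *COR15A*, *COR15B*, *KIN1*, *KIN2* and *RD29A*, and *ubp5* replicate 3 the lowest for 5. Their summed levels were 1587, 3044, 1721 and 1884 CPM in Col-0 against 1964, 1376, 1369 and 1516 CPM in *ubp5*. Only Col-0 replicate 2 stood far above the rest, and the groups overlapped through *ubp5* replicate 1. The coefficient of variation within Col-0 ranged from 14.3% for *LTI30* and 18.9% for *COR47* to 77.3% for *KIN1*.

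**Figure D4:**
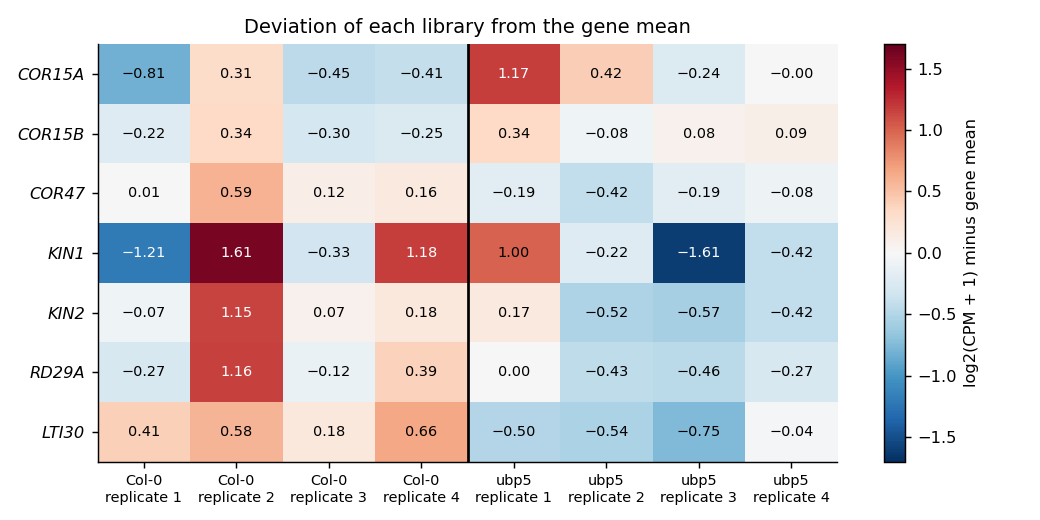
Deviation of each library (columns) from the mean of each effector gene (rows) over the 8 libraries, in log2(CPM + 1), with red for higher and blue for lower values. The vertical line separates Col-0 from *ubp5*. Col-0 replicate 2 is above the mean of all 7 genes, *LTI30* is below its mean in all 4 *ubp5* libraries, and *ubp5* replicate 1 is red for *COR15A* and *KIN1*.

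*ubp5* replicate 1 was also the library with the highest level of seed and embryo markers. Their sum was 22.8, 55.2, 42.9 and 18.4 CPM in Col-0 against 154.1, 36.3, 85.9 and 22.6 CPM in *ubp5*. Of the 7 markers 3 were tested and 0 passed an adjusted p of 0.05, and the albumin gene *SESA1* was at 0 in all Col-0 libraries. The tested ones were *CRA1*, *CRC* and *EM6*, with log2 fold changes of 1.44, 0.73 and -0.20 and overlapping groups. The oleosin genes *OLEO1* and *OLEO2*, whose products coat the oil bodies of seeds, were too rare to be tested. Both were higher in every *ubp5* library than in every Col-0 library. This order was seen for 7.87% of tested genes, a set that leaves out these rare genes. *OLEO1* had 1, 1, 2 and 1 counts in Col-0 against 14, 3, 6 and 3 in *ubp5*, and *OLEO2* had 1, 2, 1 and 2 against 16, 4, 8 and 4. The 9 clock genes, of which 6 were tested and 0 passed, summed to 448.2 to 566.4 CPM in Col-0 against 473.5 to 502.2 CPM in *ubp5*. Such a sum does not show the phase of the clock. The time of day of collection, which also bears on the *CBF* counts, is not given in the sources used. The 6 root markers, of which 5 were tested and 0 passed, summed to 203.8 to 354.4 CPM in Col-0 against 152.8 to 275.5 CPM in *ubp5*. The part of the marker levels in the *COR15A*, *KIN* and *RD29A* values was not tested.

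The difference between related neighbours was read from the ratio of their CPM in each library, for 4 pairs that were chosen after the values had been seen. The log2 ratio of *COR15A* to *COR15B* was -0.60 ± 0.25 in Col-0 and -0.13 ± 0.53 in *ubp5*, that of *KIN1* to *KIN2* -4.88 ± 0.99 and -4.86 ± 0.84, and that of *COR47* to *ERD10* 1.82 ± 0.08 and 1.87 ± 0.20 (SD, n = 4). The groups overlapped in each of these 3 pairs. *RD29A* and *RD29B*, the latter known for its response to ABA, gave the one ratio whose groups did not overlap. It was 4.91 ± 1.04 in Col-0 and 2.61 ± 0.50 in *ubp5*, a difference of -2.29. *RD29B* itself was rare, with 2, 19, 4 and 23 counts in Col-0 and 40, 21, 12 and 16 in *ubp5*, and its log2 fold change of 1.3 (SE 0.55, adjusted p = 0.154 in edgeR) did not pass. With 2 and 4 counts of *RD29B* in Col-0 replicates 1 and 3, under and just above the floor of 3, the ratios of these libraries are imprecise. A similar contrast lay between *COR15A* and *LTI30*, both with CRT/DRE cores in the window shown. The ratio of their CPM was 1.23, 2.39, 1.85 and 1.36 in Col-0 and 9.28, 5.65, 4.16 and 2.95 in *ubp5*. Every mutant library lay above every Col-0 library, and because these pairs were picked after their values had been seen no test is given for any of them.

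The wider pathway was read from lists of known genes. Of 5 relatives of the CBF factors, 2 passed the filter on low counts, and *CBF4* and *DDF2* had 0 counts in all libraries. *DREB2A*, a factor of the drought and heat response that binds the same element, had 20, 21, 23 and 23 counts in Col-0 and 7, 10, 5 and 3 in *ubp5*. Each mutant count lay below each Col-0 count, also when scaled to library size, and *DREB2A* fell from 8.07 ± 0.51 to 3.07 ± 1.15 CPM (SD, n = 4; log2 fold change -1.39, SE 0.30, adjusted p = 0.0107 in edgeR). Its relative *DREB2B* had a log2 fold change of -0.74 and did not pass (adjusted p = 0.101 in edgeR).

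Of 18 upstream regulators of the *CBF* genes 16 were tested, and 0 rose and 1 fell by the adjusted p alone, where the background over all tested genes was 4.59% and 6.34%. This is near the background, and their median log2 fold change was -0.02, beside -0.01 over all tested genes. The gene that fell was *PIF3*, which encodes a phytochrome-interacting factor that represses the *CBF* genes, from 27.9 ± 4.62 to 15.6 ± 2.5 CPM (log2 fold change -0.81, SE 0.17, adjusted p = 0.0104 in edgeR). *ICE1* had 40.2 ± 3.10 CPM in Col-0 against 30.8 ± 4.47 CPM in *ubp5* with groups that did not overlap, but its log2 fold change of -0.39 did not pass (adjusted p = 0.0873 in edgeR). Among the 10 transcription factor genes that rise with the *CBF* genes in the first hours of cold, 0 rose and 1 fell, with a median of -0.13. This was *ERF6*, an ethylene response factor gene, from 28.0 ± 5.89 to 14.7 ± 5.20 CPM (log2 fold change -0.93, SE 0.23, adjusted p = 0.0240 in edgeR).

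Of 23 other cold-regulated effectors 21 were tested, and 2 rose and 2 fell by the adjusted p alone, beside 4.59% and 6.34% of all tested genes. With the fold threshold 1 was called higher and 0 lower, beside 1.91% and 2.93% of all tested genes. The log2 fold change was negative for 14 of the 21, with a median of -0.13. *COR413IM1*, which encodes a membrane protein of the chloroplast inner envelope, rose from 81.9 ± 27.7 to 151.4 ± 8.36 CPM (log2 fold change 0.89, SE 0.18, adjusted p = 0.00836 in edgeR), with every mutant library above every Col-0 library. *LTP4*, a lipid transfer protein gene, rose from 16.5 ± 8.25 to 40.8 ± 19.5 CPM (log2 fold change 1.31, SE 0.36, adjusted p = 0.0360 in edgeR), with overlapping groups. *RCI2B*, which encodes a small hydrophobic membrane protein, fell from 48.1 ± 7.41 to 24.1 ± 5.19 CPM (log2 fold change -0.999, SE 0.17, adjusted p = 0.00245 in edgeR). *ERD10*, the dehydrin gene beside *COR47*, fell from 198.4 ± 29.4 to 140.2 ± 12.9 CPM (log2 fold change -0.50, SE 0.12, adjusted p = 0.0213 in edgeR), close in size to the value of its neighbour. Of the 14 genes of the ABA response 12 were tested, 1 rose and 0 fell, with a median of -0.13. The one that rose was *ATHB7*, an ABA-induced homeobox gene, from 27.9 ± 5.83 to 46.3 ± 3.34 CPM (log2 fold change 0.72, SE 0.15, adjusted p = 0.0104 in edgeR).

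**Figure D5:**
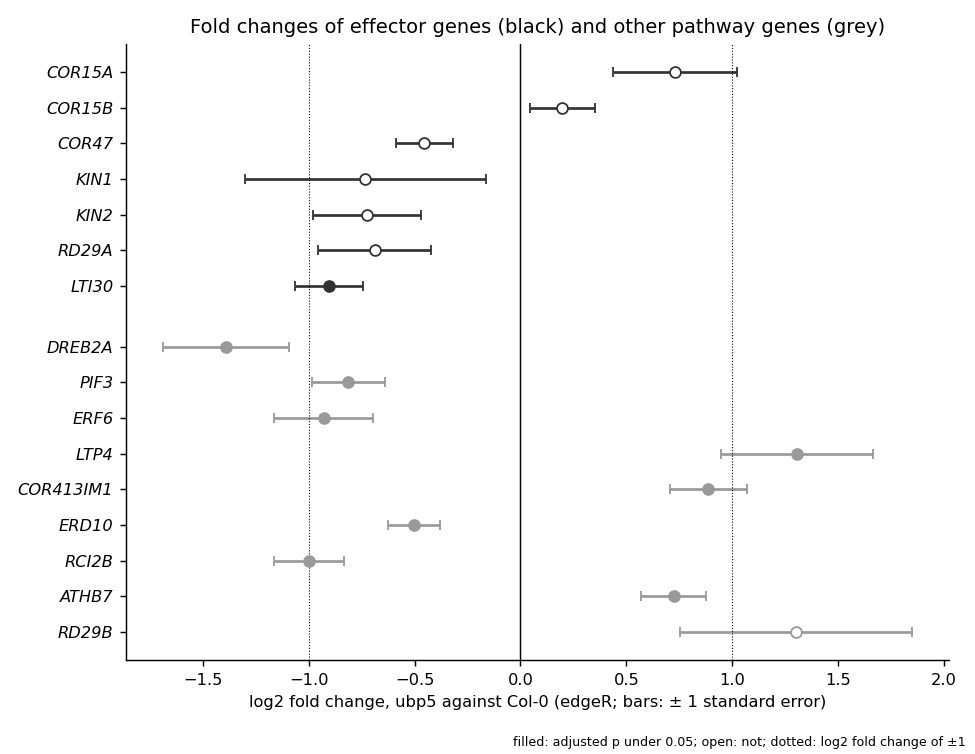
Log2 fold changes, *ubp5* against Col-0, with bars of 1 SE from edgeR, for the 7 tested members (black) and for the genes of the cold and ABA lists that passed an adjusted p of 0.05, together with *RD29B* (grey). Filled points passed the adjusted p and dotted lines stand at a log2 fold change of 1 in either direction. Of the members only *LTI30* has a filled point, and among the grey genes filled points lie on both sides of 0.

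Apart from the members, 5 tested genes had the profiles over the 8 libraries that came nearest to the mean profile of the effectors. They were *MYB23*, AT5G17460, AT1G06730, *ENODL15* and *AHL22*. Likeness was the root mean square difference of mean-centred log2(CPM + 1), which ran from 0.14 for *MYB23* to 0.17 for *AHL22*. The effectors themselves lay further from that mean, from 0.18 for *RD29A* to 0.71 for *KIN1*. Each of the 5 genes had a negative log2 fold change, from -0.49 for *AHL22* to -0.20 for *ENODL15*. Of the 5, 0 passed (adjusted p from 0.185 to 0.686 in edgeR). They were picked by their values, so the direction of their changes follows from the choice and is no separate result.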

How the data were processed

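The authors trimmed and demultiplexed 3′ RNA-seq reads with BRBseqTools, mapped them with STAR 2.7.8a to TAIR10, kept reads with a single position and deposited, for every gene, the unnormalized count of sense reads that differ in their molecular identifier. Deduplicated counts are close to counts of transcripts, low counts carry large counting error, and reads shared by close copies are lost.

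The counts were tested with edgeR 4.0.16 (quasi-likelihood test, TMM, filterByExpr) in R 4.3.3, 4 *ubp5* against 4 Col-0 libraries without covariates, with Benjamini-Hochberg adjustment over 15649 genes. SEs were derived from F statistics. CPM used TMM-scaled library sizes, and ratios of pairs a pseudocount of 0.5. Exact permutation tests used log2(CPM + 1) and SciPy 1.17.1. The procedure was checked on simulated counts. Alternatives were DESeq2 1.42.0, its size factors in edgeR, other filters, no organelle genes, a stricter adjusted p, summed copies, a replicate block and each library left out.

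The members and gene lists were chosen with earlier results of these data known. Named genes are all members, *UBP5*, list genes past an adjusted p of 0.05 (at most 4 a list) and the 5 nearest profiles. *RD29B*, *DREB2B*, *ICE1*, *CBF4*, *DDF2*, *SESA1*, *OLEO1*, *OLEO2*, *CRA1*, *CRC* and *EM6* were added after their values were seen. Nothing in the labels says that same-numbered libraries were handled together. RefSeq positions and sequences are of TAIR10.1, and the counts hold none. ChIP-seq data were not analysed here.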

Additional observations from a re-analysis of the deposited data

Results flagged for a closer look

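Within each genotype, a library was singled out when its gap to the nearest other value, divided by the range of the group, exceeded Dixon's critical value. Of 24 groups of 4 values examined 4 met this limit. It would single out about 1 in 20 groups by chance if the groups were independent and normally distributed. Here the groups share libraries and include sums of other measures, so the count of 4 cannot be weighed against that share. *KIN2* stood at 1399 CPM in Col-0 replicate 2, where the other Col-0 libraries had 598.1 to 709.4 CPM. *KIN2* also stood apart in *ubp5* replicate 1, at 705.7 CPM against 424.0 to 469.8 CPM in the other mutant libraries. *COR15B* had 243.3 CPM in Col-0 replicate 2 and 155.7 to 164.0 CPM in the rest of the group. *CBF3* was at 0 CPM in Col-0 replicate 3 beside 0.334 to 0.397 CPM in the other Col-0 libraries, which is the difference between 0 counts and 1 count.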

How the results depend on the processing

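Of 102 alternative values of the members' log2 fold changes, 94 kept their direction and their side of an adjusted p of 0.05, 8 passed it anew, 0 lost it and 0 changed sign. The count of members called higher stayed at 0 throughout, and the count called lower ranged from 0 to 1 over the libraries left out, with 1 (*LTI30*) without *ubp5* replicate 4. By the adjusted p alone, the count of higher members ranged from 0 to 1 over the libraries left out, with *COR15A* passing without Col-0 replicate 2. The count of lower members was 1 in the comparison as reported, 2 in DESeq2, 3 without a filter on low counts and 2 without organelle genes, and it ranged from 1 to 4 over the libraries left out, with 4 (*COR47*, *KIN2*, *RD29A* and *LTI30*) without Col-0 replicate 1. The genes that passed anew were *COR47* under DESeq2 (adjusted p = 0.0369), without the filter (0.0352), without organelle genes (0.0484) and without Col-0 replicate 1 (0.0173), *KIN2* without the filter (0.0412) and without Col-0 replicate 1 (0.0267), *RD29A* without Col-0 replicate 1 (0.0249), and *COR15A* without Col-0 replicate 2 (0.0492). The cause of these shifts was not tested. Over the libraries left out, the log2 fold change ranged from 0.38 to 0.996 for *COR15A*, 0.12 to 0.37 for *COR15B*, -0.52 to -0.32 for *COR47*, -1.32 to -0.25 for *KIN1*, -0.92 to -0.37 for *KIN2*, -0.86 to -0.31 for *RD29A* and -1.07 to -0.82 for *LTI30*. Summing the copies gave 0.44 for *COR15A* with *COR15B* (adjusted p = 0.200 in edgeR) and -0.73 for *KIN1* with *KIN2* (adjusted p = 0.0995 in edgeR). The summed *CBF* counts were not fitted. Same-numbered libraries of the 2 genotypes showed little shared deviation (correlations from -0.12 to 0.03). These correlations do not show whether libraries with the same number were handled together. With the replicate number as a block, 0 members were called and 1 passed the adjusted p alone, *LTI30* at -0.93 (adjusted p = 0.00315), and the block changed no call. Depth limits the *CBF* genes, whose counts lie near the floor of 3.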
